A study of Mus musculus with 10 samples.

Results

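Transcript levels of 10 regulators of brown fat identity and of mitochondrial gene expression were examined in cultured mouse brown adipocytes treated with BML-260. The members were chosen by name: Ppargc1a, Ppargc1b, Prdm16, Ebf2, Zic1, Ppara, Esrra, Esrrg, Nrf1 and Tfam. They make up 10 of the 24640 rows of the deposited count table, and all 10 were among the 15212 genes with enough counts to be tested. Brown adipocytes burn fuel for heat in mitochondria that carry the uncoupling protein UCP1. The coactivators PGC-1α and PGC-1β, encoded by Ppargc1a and Ppargc1b, bind nuclear receptors such as PPARα and the oestrogen-related receptors (Ppara, Esrra, Esrrg) and the factor NRF1 to raise transcription of mitochondrial and fatty acid oxidation genes, while Tfam encodes the factor that packages mitochondrial DNA and starts its transcription. PRDM16 and EBF2 specify the brown fat lineage, and Zic1 is a marker of classical brown fat.

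The study sequenced total RNA from brown adipocytes of the C57BL/6 strain in 5 groups of 2 libraries each. The groups were the solvent DMSO at 1 day, BML-260 at 1 day, a treatment named ISO at 1 day, DMSO at 3 days and BML-260 at 3 days. BML-260 is a small-molecule inhibitor of the dual-specificity phosphatase DUSP22, and the labels neither give its dose nor spell out ISO. No gene was altered, all groups are cultured cells, and the labels do not say whether the libraries of a group came from separate cultures or animals, so every p-value below reflects the scatter among the sequenced libraries alone, and that scatter may be technical.

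The libraries held 16955918 to 21185675 counts. All 10 brown adipocyte markers examined were present in every group, with summed levels of 7213 to 14140 CPM (read counts scaled to a common library size, with TMM scaling). Most of that sum was Fabp4, which averaged 6393 CPM in DMSO at 1 day. Means there were 5.58 CPM for Ucp1, 9.975 for Cox8b, 10.7 for Elovl3, 129.3 for Cidea and 338.5 for Cox7a1, so the sum says little about these genes. Markers of skeletal muscle, macrophages and endothelium summed to at most 7.24 CPM in any library, and those of neurons and glia to at most 13.4 CPM. Preadipocyte and fibroblast markers were higher, at 1427 and 1589 CPM in DMSO at 1 day, 1003 and 1064 CPM in BML-260 at 1 day, 2804 and 3082 CPM in DMSO at 3 days, 2415 and 2459 CPM in BML-260 at 3 days and 3162 and 3551 CPM in ISO, while Cd34, Lum and Dpp4 of that list had at most 10 counts in any library. The part of these cells in the results below was not tested, and in bulk RNA fewer cells of a type and less RNA per cell cannot be told apart. The ISO libraries, labelled 1 day, differed from DMSO at 1 day in 6339 genes and from DMSO at 3 days in 3026 genes, so ISO is set against both controls below.

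Sequence upstream of the transcription start is shown for 5 members that the results below turn on. RefSeq promoter windows (GRCm38.p6) were matched for 8 of the 10 members, and the 250 bases before each start were searched on both strands for 8 motifs. Capitals mark every match. Coordinates are those of the printed stretch, which leaves out bases inside GENCODE M21 exons, and all 3 genes lie on the minus strand: Ppargc1a at chr5:51567727-51567975, Prdm16 at chr4:154636874-154637123 and Esrra at chr19:6921814-6922058.
Ppargc1a: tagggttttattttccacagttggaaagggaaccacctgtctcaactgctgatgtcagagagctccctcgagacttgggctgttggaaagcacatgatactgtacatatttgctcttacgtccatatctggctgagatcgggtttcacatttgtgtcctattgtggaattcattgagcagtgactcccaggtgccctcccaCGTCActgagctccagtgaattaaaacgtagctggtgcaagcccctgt
Prdm16: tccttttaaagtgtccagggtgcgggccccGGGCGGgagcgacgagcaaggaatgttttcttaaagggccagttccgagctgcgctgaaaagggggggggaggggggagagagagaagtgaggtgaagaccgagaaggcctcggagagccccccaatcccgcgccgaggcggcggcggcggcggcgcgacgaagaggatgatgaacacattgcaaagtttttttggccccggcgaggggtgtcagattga
Esrra: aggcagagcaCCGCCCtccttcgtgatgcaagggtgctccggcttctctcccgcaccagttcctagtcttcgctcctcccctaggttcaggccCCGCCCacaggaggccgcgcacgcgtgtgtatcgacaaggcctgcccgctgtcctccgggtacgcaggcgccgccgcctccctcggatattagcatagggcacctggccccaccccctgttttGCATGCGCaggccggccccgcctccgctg
The Ppargc1a stretch held TGACG, the 5-letter part of the cAMP response element, on the reverse strand at 49 to 45 bases before the start. It also lay in the window of Ppara, on the plus strand at 222 to 218 bases before the start, in bases not printed here. That motif was present in 17.8% of the 32851 mouse promoter windows, and the full element TGACGTCA, present in 1.55% of them, was in no member's window. Prdm16 held 1 SP1 box, GGGCGG, a motif of 32.7% of windows, and Esrra held 2. Esrra also held the NRF1 core GCGCATGC on the reverse strand at 34 to 27 bases before the start, a motif of 2.26% of windows.

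The other window with the NRF1 core was that of Ppara, and the window of Tfam held the ETS motif ACCGGAAG that GABPA binds, present in 1.72% of windows. The 30 bases around each are shown because these are the sites nearest to the start of each gene, from chr15:85735735-85735764 on the plus strand for Ppara and chr10:71238074-71238103 on the minus strand for Tfam, where the stretch lies inside an annotated exon of GENCODE M21.
Ppara: gggctcggtgGCGCATGCGCgcggactagg
Tfam: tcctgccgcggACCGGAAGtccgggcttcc
In Ppara the core matched on both strands, overlapping, at 31 to 22 bases before the start, and in Tfam the ETS motif lay 48 to 41 bases before it. The oestrogen-related receptor element TNAAGGTCA (374 of the windows), the nuclear receptor half-site AGGTCA (14% of windows) and the EBF core CCCNNGGGA (5.6% of windows) were in no member's window. A match is a description of these letters and not of a bound site.

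Per kilobase of exon, the mean level over all libraries was highest for Ppara (27.3 CPM per kb), Tfam (20.6), Esrra (20.1), Ppargc1b (18.9) and Ebf2 (15.4). Ppargc1a (6.83 CPM per kb), Zic1 (5.82) and Nrf1 (4.73) were intermediate, and Prdm16 (1.56) and Esrrg (0.594) were lowest. Esrrg rested on 47 to 92 counts per library and Prdm16 on 179 to 374, whereas every other member had at least 504. Between the highest and lowest group means, Prdm16 differed by a ratio of 2.01, Esrra by 1.73, Esrrg by 1.71 and Ppara by 1.60, while Zic1 (1.145) and Nrf1 (1.11) were nearly level. The median of this ratio over all genes tested was 1.37.

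**Figure D1:**
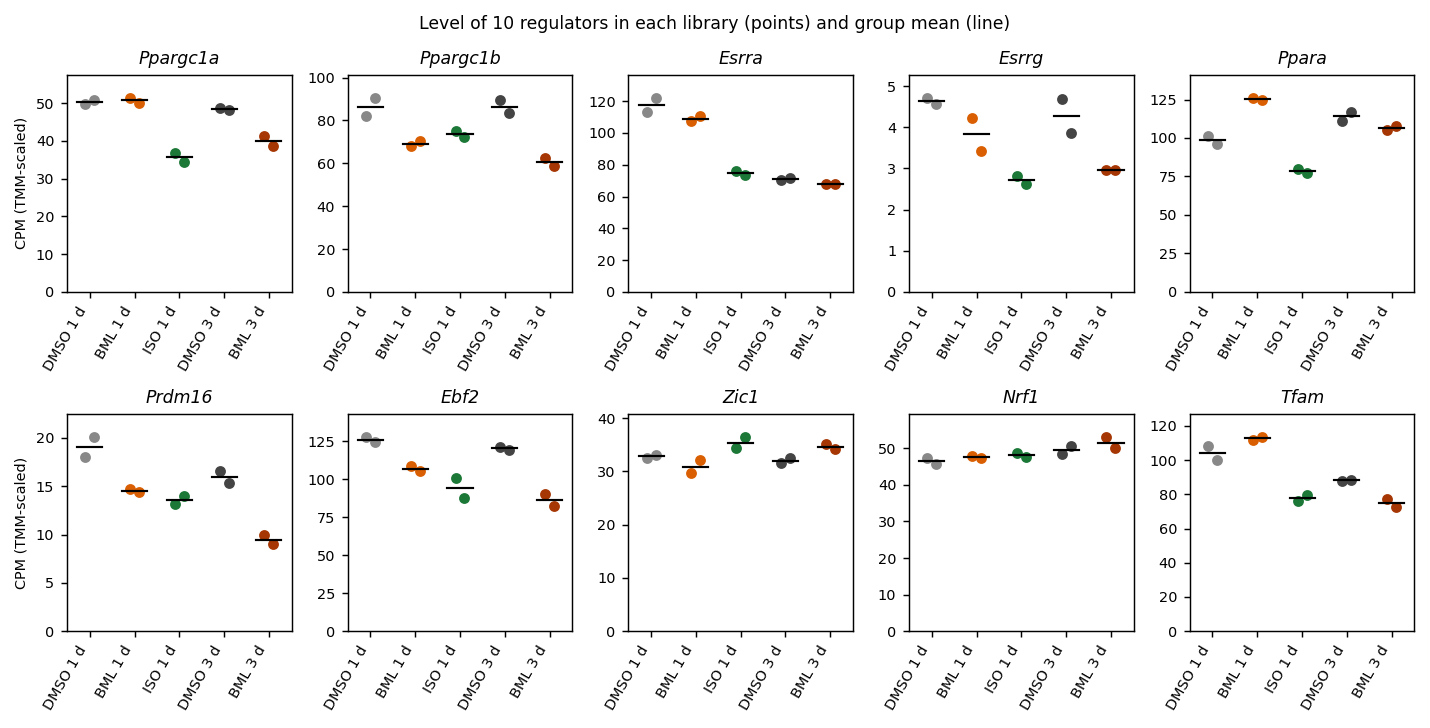
CPM (TMM-scaled) of each of the 10 regulators, with 1 panel per gene, 1 point per library and a line at the mean of the 2 libraries of a group; every vertical axis starts at 0. Prdm16 was lowest in BML-260 at 3 days (9.01 and 9.93 CPM), Esrra was higher in DMSO and BML-260 at 1 day (108 to 122 CPM) than in the other groups (67.9 to 76.3 CPM), and Nrf1 stayed between 45.8 and 53.0 CPM.

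Under BML-260 the lineage factors Prdm16 and Ebf2 and the coactivator Ppargc1b fell at both times, and Ppara rose at 1 day. At 1 day, 4 of the 10 members were called by edgeR's quasi-likelihood test (adjusted p under 0.05 over all genes tested), against 17.9% of all genes. Ppara rose, where 9.32% of all genes rose, and Ppargc1b, Prdm16 and Ebf2 fell, where 8.62% of all genes fell. At 3 days, 6 members were called, against 35.5% of all genes, and all 6 fell: Ppargc1a, Ppargc1b, Prdm16, Ebf2, Esrrg and Tfam. In that comparison 17.3% of all genes rose and 18.3% fell. The median log2 fold change of the members was -0.10 at 1 day and -0.26 at 3 days, beside medians over all genes of 0.00 and -0.02.

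The difference between both BML-260 effects was tested as an interaction. It was called for 3 members, against 8.44% of all genes, and in each of them the effect was lower at 3 days than at 1 day: Ppara, Tfam and Ppargc1a. Among all genes, the interaction was positive for 3.93% and negative for 4.51%. Prdm16 and Ebf2, which fell at both times, had interaction estimates of -0.36 and -0.25 on the log2 scale that missed the threshold (edgeR adjusted p = 0.119 and 0.059).

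**Figure D2:**
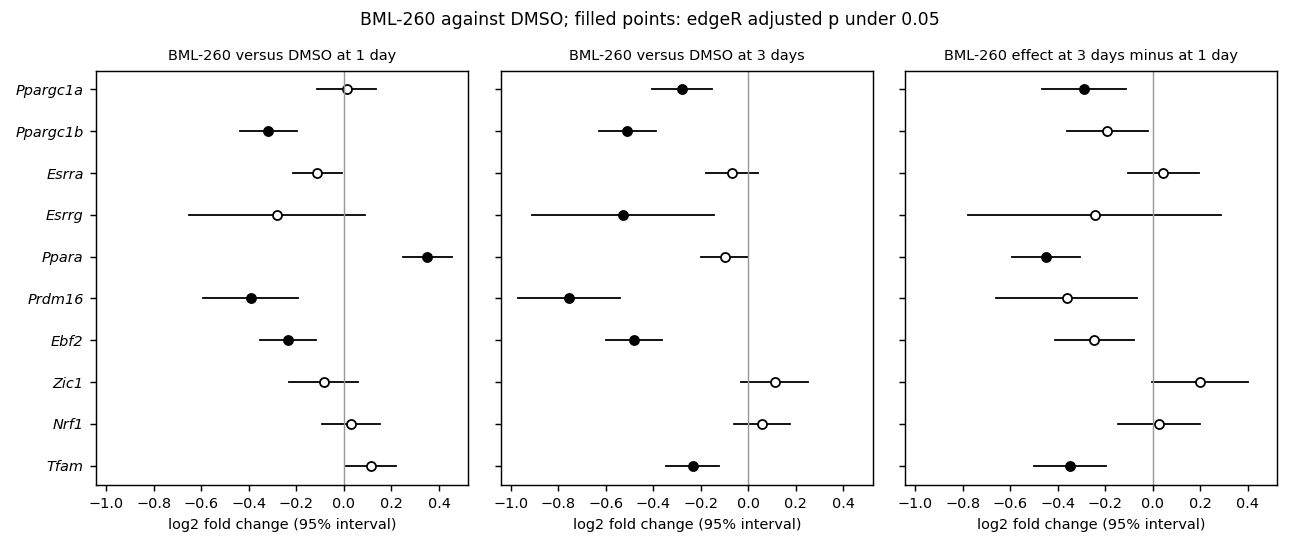
Log2 fold change of each regulator with its 95% interval for BML-260 against DMSO at 1 day (left), at 3 days (middle) and the difference between both effects (right); filled points passed an edgeR adjusted p of 0.05. Prdm16, Ebf2 and Ppargc1b lie left of 0 at both times, and Ppara moves from 0.35 at 1 day to -0.10 at 3 days.

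Among the coactivators, Ppargc1a, which in brown fat is known for its induction by cold and β-adrenergic signalling, measured 49.7 and 51.0 CPM in DMSO and 50.1 and 51.4 CPM in BML-260 at 1 day. At 3 days it measured 48.2 and 48.7 CPM in DMSO and 38.6 and 41.2 CPM in BML-260. The groups overlapped at 1 day and were apart at 3 days. The log2 fold change was 0.01 ± 0.06 (SE) at 1 day (edgeR adjusted p = 0.924) and -0.28 ± 0.06 at 3 days (edgeR adjusted p = 0.00082), and the interaction of -0.29 had an edgeR adjusted p of 0.0347. The interaction call was lost with DESeq2 (adjusted p = 0.181), with no filter on low counts (edgeR adjusted p = 0.0511), and on leaving out any of 7 of the 8 libraries involved, all but BML-260 at 3 days replicate 1, with edgeR adjusted p-values of 0.0588 to 0.151.

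Ppargc1b, the close relative that also coactivates oestrogen-related receptors (chr18:61298136-61400431, minus strand, GRCm38), measured 81.9 and 90.6 CPM in DMSO and 68.0 and 70.5 CPM in BML-260 at 1 day. At 3 days the values were 83.3 and 89.6 CPM in DMSO and 58.8 and 62.7 CPM in BML-260. BML-260 lay below DMSO without overlap at both times. Its log2 fold change was -0.32 ± 0.06 at 1 day (edgeR adjusted p = 3e-04) and -0.51 ± 0.06 at 3 days (edgeR adjusted p = 1.25e-07).

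Of the nuclear receptors, Ppara, a sensor of fatty acids that drives their oxidation, was the member that rose. It measured 95.8 and 101.1 CPM in DMSO and 125 and 126 CPM in BML-260 at 1 day, and 111 and 117 CPM in DMSO and 105 and 108 CPM in BML-260 at 3 days. The groups were apart at both times but in opposite order. The log2 fold change was 0.35 ± 0.05 at 1 day (edgeR adjusted p = 9.76e-06) and -0.10 ± 0.05 at 3 days (edgeR adjusted p = 0.113), and the interaction was -0.45 ± 0.07 (edgeR adjusted p = 0.000184). With upper-quartile scaling the value at 3 days, -0.14, was called (edgeR adjusted p = 0.0326).

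Esrra, the receptor ERRα that switches on respiratory chain genes, measured 113 and 122 CPM in DMSO and 108 and 110.4 CPM in BML-260 at 1 day. At 3 days it measured 70.5 and 71.9 CPM in DMSO and 67.9 CPM in both BML-260 libraries. Its groups were apart at each time, but the log2 fold changes of -0.11 (95% interval -0.21 to -0.01) and -0.07 (-0.18 to 0.04) were not called by edgeR (adjusted p = 0.125 and 0.345). Trmt112 on the opposite strand and a microRNA gene on the same strand together share 164 exon bases with Esrra. Trmt112 averaged 28.3 CPM, and reads in the shared bases cannot be told apart because strand use in counting is not given.

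Esrrg, the receptor ERRγ, was scarce, with 4.56 and 4.72 CPM in DMSO and 3.43 and 4.23 CPM in BML-260 at 1 day, and 3.87 and 4.68 CPM in DMSO and 2.96 and 2.97 CPM in BML-260 at 3 days. The BML-260 libraries lay below DMSO at both times. The log2 fold change was -0.28 ± 0.18 at 1 day (edgeR adjusted p = 0.313) and -0.53 ± 0.19 at 3 days (edgeR adjusted p = 0.029). The call at 3 days was lost with DESeq2 (adjusted p = 0.18) and without DMSO at 3 days replicate 1 (-0.35, edgeR adjusted p = 0.274), BML-260 at 3 days replicate 1 (0.095) or BML-260 at 3 days replicate 2 (0.106).

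Of the lineage factors, Prdm16, a zinc finger co-regulator that holds precursor cells to the brown fat fate, showed the largest fall of the 10 members under BML-260. It measured 18.0 and 20.1 CPM in DMSO and 14.4 and 14.7 CPM in BML-260 at 1 day, and 15.4 and 16.5 CPM in DMSO and 9.01 and 9.93 CPM in BML-260 at 3 days. No BML-260 library reached the DMSO range of its time. The log2 fold change was -0.39 ± 0.10 at 1 day (edgeR adjusted p = 0.00521) and -0.75 ± 0.11 at 3 days (edgeR adjusted p = 2.75e-06). Without DMSO at 1 day replicate 2 the fall at 1 day was -0.31 and was not called (edgeR adjusted p = 0.117).

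Ebf2, a helix-loop-helix factor that opens brown fat enhancers and is also present in brown preadipocytes, measured 124 and 128 CPM in DMSO and 106 and 109 CPM in BML-260 at 1 day. At 3 days it measured 119 and 122 CPM in DMSO and 82.5 and 90.3 CPM in BML-260. The groups did not overlap at either time. The log2 fold change was -0.24 ± 0.06 at 1 day (edgeR adjusted p = 0.0044) and -0.48 ± 0.06 at 3 days (edgeR adjusted p = 2.64e-07), and the first was lost narrowly without BML-260 at 1 day replicate 2 (-0.21, edgeR adjusted p = 0.0506). Gm10860, an antisense gene that shares 424 exon bases with Ebf2, averaged 0.90 CPM. Of the 8 preadipocyte and fibroblast markers tested, 5 fell at 1 day and 7 at 3 days under BML-260, and none rose. The shares of all genes that fell were 8.62% and 18.3%. In ISO against DMSO at 1 day, 7 of the 8 rose, where 21.4% of all genes rose, while Ebf2 fell by 0.42. Against DMSO at 3 days 2 rose and 2 fell, where 10.6% of all genes rose and 9.24% fell, with Ebf2 at -0.35. From 1 to 3 days in DMSO 7 rose, where 18.1% of all genes rose, and Ebf2 was at -0.07 and not called. A link between these markers and Ebf2 was not tested.

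Zic1, a zinc finger factor of dorsal neural and somite tissue that is kept in classical brown fat, was nearly level. It measured 32.6 and 33.1 CPM in DMSO and 29.6 and 32.2 CPM in BML-260 at 1 day, and 31.6 and 32.4 CPM in DMSO and 34.1 and 35.1 CPM in BML-260 at 3 days. The direction differed between times, and neither log2 fold change, -0.09 ± 0.07 and 0.11 ± 0.07, was called by edgeR (adjusted p = 0.458 and 0.217).

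Of the mitochondrial factors, Nrf1, which binds the promoters of nuclear genes for respiratory chain subunits, measured 45.8 and 47.3 CPM in DMSO and 47.2 and 47.8 CPM in BML-260 at 1 day, and 48.5 and 50.6 CPM in DMSO and 50.1 and 53.0 CPM in BML-260 at 3 days. The groups overlapped at both times. The 95% intervals of its log2 fold changes ran from -0.09 to 0.15 at 1 day and from -0.06 to 0.18 at 3 days.

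Tfam measured 100.1 and 108 CPM in DMSO and 112 and 113 CPM in BML-260 at 1 day. At 3 days it measured 88.0 and 88.1 CPM in DMSO and 72.4 and 77.3 CPM in BML-260. BML-260 was above DMSO at 1 day and below it at 3 days, without overlap at either time. The log2 fold change was 0.11 ± 0.05 at 1 day (edgeR adjusted p = 0.129) and -0.23 ± 0.05 at 3 days (edgeR adjusted p = 0.00111), and the interaction was -0.35 ± 0.07 (edgeR adjusted p = 0.00374).

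Time in culture without compound was marked by a fall of Esrra. From 1 to 3 days in DMSO, 4 members were called, against 34.9% of all genes: Ppara rose, as did 18.1% of all genes, and Esrra, Prdm16 and Tfam fell, as did 16.8%. Esrra dropped from 113 and 122 CPM to 70.5 and 71.9 CPM, a log2 fold change of -0.73 ± 0.05 (edgeR adjusted p = 3.03e-11), the largest of any member in this comparison. Tfam fell by 0.24 on the log2 scale (edgeR adjusted p = 0.00067), Prdm16 fell by 0.26 (edgeR adjusted p = 0.034) and Ppara rose by 0.21 (edgeR adjusted p = 0.00134). The call of Prdm16 was lost with DESeq2 (adjusted p = 0.159), with no filter on low counts (edgeR adjusted p = 0.0588) and without DMSO at 1 day replicate 2 (0.284), DMSO at 3 days replicate 1 (0.0529) or DMSO at 3 days replicate 2 (0.196). That of Ppara was lost without DMSO at 3 days replicate 2 (0.16, edgeR adjusted p = 0.0567).

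From 1 to 3 days in BML-260, 7 members were called, against 46.4% of all genes, and all 7 fell. Among all genes, 22.9% rose and 23.4% fell. Esrra again changed most (-0.68 ± 0.05, edgeR adjusted p = 4.19e-11), followed by Prdm16 (-0.62 ± 0.11) and Tfam (-0.59 ± 0.05). Ppargc1a fell by 0.35, Ebf2 by 0.31, Ppara by 0.24 and Ppargc1b by 0.19. The last was not called with DESeq2 (adjusted p = 0.0607), without BML-260 at 1 day replicate 2 (edgeR adjusted p = 0.0863) or without BML-260 at 3 days replicate 2 (edgeR adjusted p = 0.143). Zic1 measured 29.6 and 32.2 CPM at 1 day and 34.1 and 35.1 CPM at 3 days, a log2 difference of 0.16 that edgeR did not call (adjusted p = 0.0603).

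**Figure D3:**
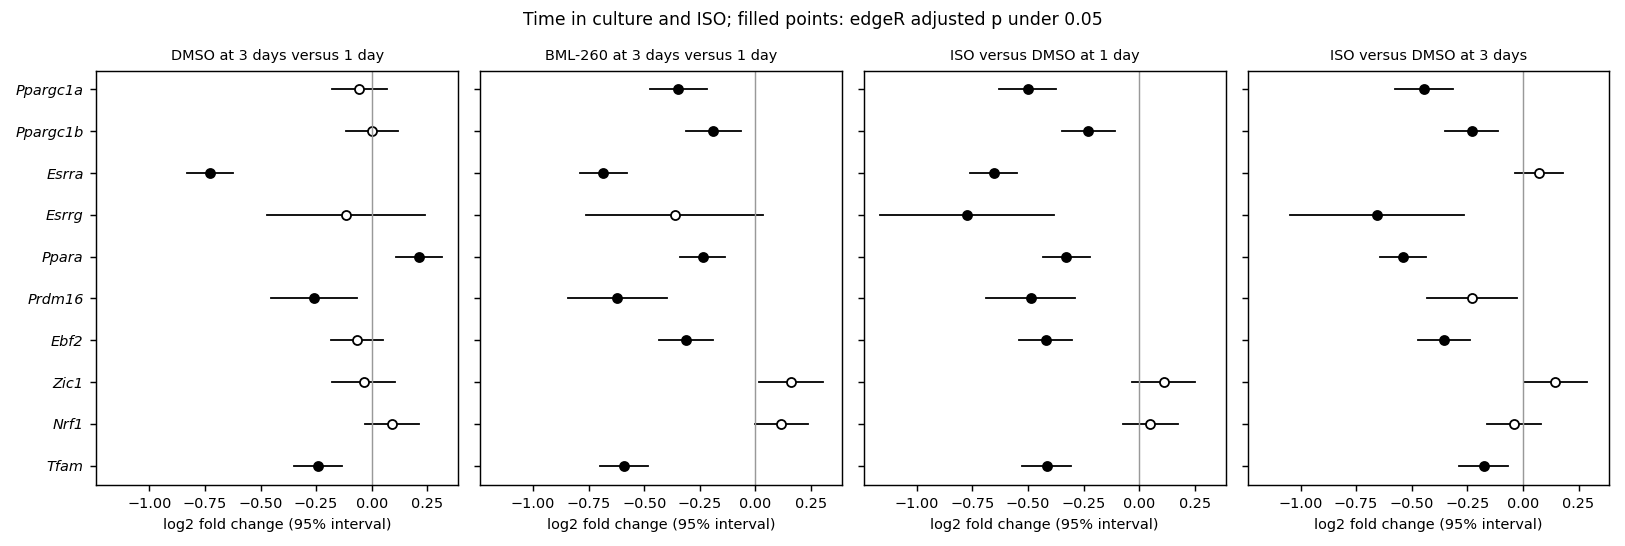
Log2 fold change of each regulator with its 95% interval for 3 days against 1 day in DMSO and in BML-260, and for ISO against DMSO at 1 day and at 3 days; filled points passed an edgeR adjusted p of 0.05. Esrra lies near -0.7 in both time comparisons and in ISO against DMSO at 1 day, and at 0.07 in ISO against DMSO at 3 days.

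ISO had lower levels of most of these regulators than DMSO. Against DMSO of the labelled time, 1 day, 8 members were called, against 41.7% of all genes, and all 8 fell, while Zic1 and Nrf1 were not called. Among all genes, 21.4% rose and 20.3% fell. Against DMSO at 3 days, 6 members were called, against 19.9% of all genes, and all 6 fell, while among all genes 10.6% rose and 9.24% fell. Both comparisons use the same ISO libraries, and the second differs in labelled time.

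Ppargc1a was lowest in ISO of all groups, at 34.4 and 36.9 CPM, with a log2 fold change of -0.50 ± 0.06 against DMSO at 1 day (edgeR adjusted p = 3.62e-07) and -0.45 ± 0.06 against DMSO at 3 days (edgeR adjusted p = 1.21e-05). Ppara was also lowest there, at 77.3 and 79.6 CPM, with -0.33 ± 0.05 and -0.54 ± 0.05 (edgeR adjusted p = 9.87e-06 and 2.27e-08). Ebf2, at 87.8 and 101.2 CPM, fell by 0.42 and 0.35. Every ISO library lay below every DMSO library for these 3 genes, and also for Ppargc1b, Prdm16, Esrrg and Tfam. The share of all genes separated in this way was not computed.

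For Esrra and Prdm16 the call differed with the control. Esrra measured 73.5 and 76.3 CPM in ISO, a log2 fold change of -0.66 ± 0.05 against DMSO at 1 day (edgeR adjusted p = 9.22e-11) and 0.07 ± 0.05 against DMSO at 3 days (edgeR adjusted p = 0.376). Prdm16, at 13.2 and 14.0 CPM, fell by 0.49 against the first (edgeR adjusted p = 0.000213) and differed by -0.23 from the second (edgeR adjusted p = 0.106). Tfam, at 76.1 and 79.6 CPM, fell by 0.42 and 0.18 (edgeR adjusted p = 4.35e-07 and 0.0193).

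Ppargc1b, at 72.2 and 75.2 CPM in ISO, fell by 0.23 against each control (edgeR adjusted p = 0.00225 and 0.00496). Esrrg, at 2.63 and 2.81 CPM, fell by 0.77 and 0.66 (edgeR adjusted p = 0.00178 and 0.0149). Zic1 was highest of all groups in ISO, at 34.3 and 36.4 CPM, but the log2 differences of 0.11 and 0.15 were not called by edgeR (adjusted p = 0.21 and 0.137). Nrf1 measured 47.6 and 48.7 CPM in ISO, with differences of 0.05 and -0.04 (edgeR adjusted p = 0.541 and 0.681).

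Several of these ISO calls rested on single libraries. Against DMSO at 1 day, Ppargc1b was not called without DMSO at 1 day replicate 2 (-0.15, edgeR adjusted p = 0.0843). Against DMSO at 3 days, leaving out DMSO at 3 days replicate 1 left 3 members called, and Ppargc1b (-0.17, edgeR adjusted p = 0.146), Esrrg (-0.50, 0.18) and Tfam (-0.17, 0.126) were the ones lost. Without ISO replicate 2, Ppargc1b (edgeR adjusted p = 0.0789) and Esrrg (0.121) were lost, and Tfam was lost without ISO replicate 1 (-0.15, edgeR adjusted p = 0.129) or DMSO at 3 days replicate 2 (-0.16, 0.124). DESeq2 did not call Esrrg (adjusted p = 0.112) or Tfam (adjusted p = 0.0789) there.

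Set directly against ISO at the same labelled time, BML-260 had 7 members called, against 44.4% of all genes. Here 6 members were higher in BML-260, where 21.6% of all genes were, and Zic1 was lower, where 22.8% were. The log2 differences were 0.68 ± 0.05 for Ppara, 0.54 ± 0.05 for Esrra, 0.53 ± 0.05 for Tfam, 0.51 ± 0.06 for Ppargc1a, 0.49 ± 0.20 for Esrrg and 0.19 ± 0.06 for Ebf2, and -0.20 ± 0.07 for Zic1. Ppargc1b (-0.09, 95% interval -0.21 to 0.03) and Prdm16 (0.10, -0.11 to 0.31) were not called. BML-260 at 3 days differs from ISO in labelled time and was not tested against it. It had lower means than ISO for Prdm16 (9.47 against 13.6 CPM), Esrra (67.9 against 74.9 CPM), Tfam (74.9 against 77.8 CPM, libraries overlapping) and Ebf2 (86.4 against 94.5 CPM, libraries overlapping). For these genes that was the opposite order to BML-260 at 1 day. Without BML-260 at 1 day replicate 1 or without ISO replicate 2, 4 members were called, and Ebf2 (edgeR adjusted p = 0.0699 and 0.358), Zic1 (0.212 and 0.19) and Esrrg (0.3 and 0.188) were lost. Esrrg was also lost without ISO replicate 1 (0.0749), with no filter on low counts (0.061) and with only the groups compared in the fit (0.0609), Zic1 with upper-quartile scaling (0.067), and both with DESeq2 (0.189 and 0.114).

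Genes known as targets of these regulators were listed and counted in the same tests. The lists here and below were chosen with earlier results of these data known, so their counts are a description. Under BML-260, known targets of the oestrogen-related receptors and NRF1, which encode respiratory chain and citric acid cycle proteins, rose at both times: 15 of 24 rose at 1 day and 13 of 24 at 3 days, and none fell. The shares of all genes that rose were 9.32% and 17.3%, and 8.62% and 18.3% fell. The median log2 fold changes of these targets were 0.15 and 0.12. Cycs, the electron carrier cytochrome c, rose by 0.35 ± 0.05 and 0.57 ± 0.05 (edgeR adjusted p = 1.17e-05 and 2.94e-09), and Sdhb, a subunit of succinate dehydrogenase, rose by 0.22 and 0.25. Over the same 2 comparisons Esrra and Nrf1 themselves were not called. Esrrg fell at 3 days (-0.53, edgeR adjusted p = 0.029), a call lost with DESeq2 (adjusted p = 0.18). The coactivator genes also fell, Ppargc1b at both times and Ppargc1a at 3 days.

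The same targets followed time and ISO in the other direction. From 1 to 3 days in DMSO 22 of 24 fell, with a median of -0.42, where 16.8% of all genes fell. From 1 to 3 days in BML-260 23 of 24 fell, with a median of -0.45, where 23.4% of all genes fell. In ISO 23 of 24 fell against DMSO at 1 day, with a median of -0.41, where 20.3% of all genes fell. Against DMSO at 3 days 2 rose and 1 fell, with a median of 0.01, where 10.6% of all genes rose and 9.24% fell. Cox6c, a cytochrome c oxidase subunit, fell by 0.60 against DMSO at 1 day and by 0.15 against DMSO at 3 days.

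Known PPARα targets, mostly enzymes of fatty acid oxidation, rose in 11 of 15 cases and fell in 1 at 1 day of BML-260. Their median was 0.28, and 9.32% of all genes rose and 8.62% fell. At 3 days 8 rose and 3 fell, with a median of 0.16, where 17.3% of all genes rose and 18.3% fell. The falls at 3 days were thus near the share of all genes. Hadha, of the mitochondrial trifunctional protein, rose by 0.43 and 0.36, and the lipid droplet coat gene Plin2 rose by 0.45 and 0.53. At 3 days Angptl4, an inhibitor of lipoprotein lipase, fell by 1.15 ± 0.09 (edgeR adjusted p = 8.35e-11), and the hormone gene Fgf21 rose by 1.82 ± 0.26 (edgeR adjusted p = 3.62e-06). The interaction was negative for 5 of the 15 and positive for none, where it was negative for 4.51% and positive for 3.93% of all genes. Acadm, an acyl-CoA dehydrogenase, was among the 5 (-0.30, edgeR adjusted p = 0.00368). In ISO, 10 of 15 fell and 2 rose against DMSO at 1 day, with a median of -0.38, where 20.3% of all genes fell and 21.4% rose. Against DMSO at 3 days 5 fell and 1 rose, with a median of -0.11, where 9.24% of all genes fell and 10.6% rose. Hadha was at -0.61 against the first control and -0.07 against the second (edgeR adjusted p = 0.312).

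Known targets of PRDM16 and EBF2, a list that holds Ppargc1a and Ppara themselves, included Ucp1. Of 10 tested, 5 rose at 1 day of BML-260, Ppara among them, and none fell, where 9.32% of all genes rose and 8.62% fell. At 3 days 4 rose and Ppargc1a fell, where 17.3% of all genes rose and 18.3% fell. Ucp1 averaged 5.58 CPM in DMSO and 13.9 CPM in BML-260 at 1 day, and 12.7 and 31.8 CPM at 3 days, log2 fold changes of 1.32 ± 0.13 and 1.32 ± 0.10 (edgeR adjusted p = 5.8e-08 and 4.59e-11). Elovl3, a fatty acid elongase of brown fat, rose by 1.52 and 1.28, and Cidea, a lipid droplet protein, by 0.27 and 0.24. In ISO, Ucp1 averaged 24.8 CPM and rose by 2.15 ± 0.12 against DMSO at 1 day (edgeR adjusted p = 1.95e-13) and by 0.96 ± 0.10 against DMSO at 3 days (edgeR adjusted p = 1.75e-07). The genes of this list that fell against DMSO at 1 day were Ppargc1a, Ppara and Acot2, and 2 rose. Against DMSO at 3 days 5 fell, Ppargc1a and Ppara among them, and 1 rose. Of all genes, 20.3% and 9.24% fell and 21.4% and 10.6% rose in these comparisons.

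**Figure D4:**
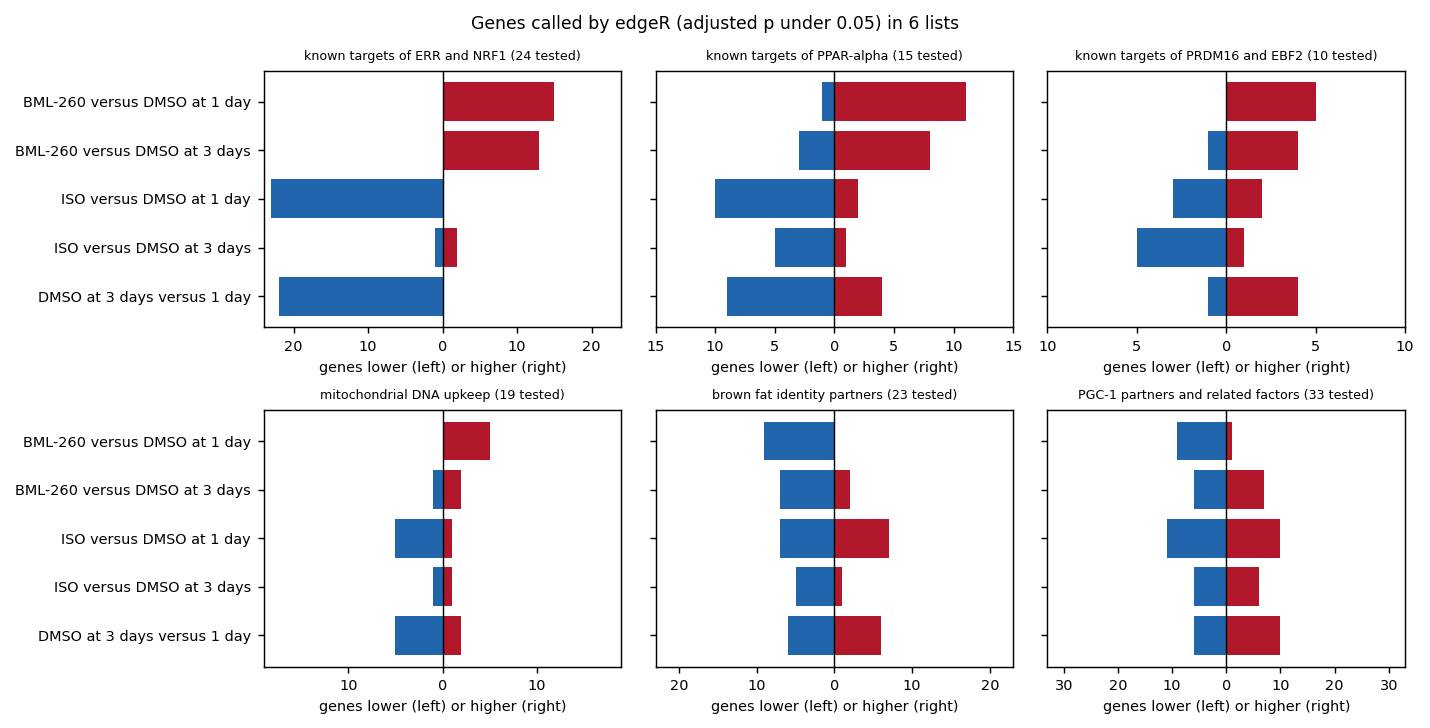
Number of genes of each of 6 lists that edgeR called higher (right, red) or lower (left, blue) at an adjusted p under 0.05, in 5 comparisons; each horizontal axis reaches the number of genes tested in that list. Known targets of the oestrogen-related receptors and NRF1 are higher in both BML-260 comparisons (15 and 13 of 24) and lower in ISO against DMSO at 1 day (23) and over time in DMSO (22).

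Of 23 brown fat identity partners of the lineage factors tested, 9 fell and none rose at 1 day of BML-260, where 8.62% of all genes fell and 9.32% rose, and 14 were not called. At 3 days 7 fell, 2 rose and 14 were not called, where 18.3% of all genes fell and 17.3% rose, and the median was -0.05. Cebpa, a core adipocyte transcription factor, fell by 0.50 ± 0.06 and 0.94 ± 0.07 (edgeR adjusted p = 1.67e-06 and 2.35e-11), Nfia, which primes brown fat enhancers, by 0.48 and 0.55, and Ebf1 by 0.25 and 0.50. Irf4, a partner of PGC-1α in brown fat, fell by 0.99 at 3 days (edgeR adjusted p = 2.62e-06). In ISO 7 rose and 7 fell against DMSO at 1 day, where 21.4% of all genes rose and 20.3% fell, with Cebpa at -1.05 and Klf11 at 0.54. Against DMSO at 3 days 1 rose and 5 fell, where 10.6% of all genes rose and 9.24% fell. There Cebpa was at -0.20 (edgeR adjusted p = 0.027) and Klf11 at 0.10 (edgeR adjusted p = 0.32).

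Among 33 partners and co-regulators of the PGC-1 coactivators tested, 9 fell and 1 rose at 1 day of BML-260. The shares of all genes were then 8.62% and 9.32%. At 3 days 6 fell and 7 rose, near the shares of all genes, 18.3% and 17.3%. At 3 days Pparg, the adipocyte master receptor, fell by 0.45 ± 0.04 (edgeR adjusted p = 2.83e-09) and Prkaa1, a catalytic subunit of AMP-activated kinase, by 0.45. Pprc1, the third member of the PGC-1 family, averaged 57.5 CPM in DMSO and 81.9 CPM in BML-260 at 3 days and rose by 0.51 at 3 days in BML-260 (edgeR adjusted p = 3.61e-07), by 0.57 in ISO against DMSO at 1 day (edgeR adjusted p = 6.33e-08) and by 0.46 in ISO against DMSO at 3 days (edgeR adjusted p = 7.97e-06).

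Genes that transcribe and maintain mitochondrial DNA form the setting in which Tfam acts. Of 19 tested, 5 rose and none fell at 1 day of BML-260, where 9.32% of all genes rose and 8.62% fell, and 2 rose and 1 fell at 3 days, where 17.3% rose and 18.3% fell. Lonp1, the mitochondrial protease that degrades TFAM, rose by 0.26 ± 0.04 and 0.47 ± 0.04 (edgeR adjusted p = 4.97e-05 and 9.46e-10). Tfb2m, the other factor needed to start transcription on mitochondrial DNA, rose by 0.22 at 1 day (edgeR adjusted p = 0.0363). Its interaction was negative, at -0.38 (edgeR adjusted p = 0.0229), as was that of Tfam, while that of Lonp1 was positive, at 0.21 (edgeR adjusted p = 0.0204). The interaction was called for no other gene of the 19, where it was positive for 3.93% and negative for 4.51% of all genes. In ISO 5 fell and 1 rose against DMSO at 1 day, among them Tefm, the elongation factor, at -0.54 (edgeR adjusted p = 7.72e-05). Against DMSO at 3 days 1 fell and 1 rose, and Tefm was at -0.11 (edgeR adjusted p = 0.497). Of all genes, 20.3% fell and 21.4% rose against the first control, and 9.24% fell and 10.6% rose against the second.

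The authors' deposited table for BML-260 against DMSO at 1 day lists Ppara at a log2 fold change of 0.33, Ppargc1b at -0.29 and Ebf2 at -0.22. The authors' deposited table for 3 days lists Prdm16 at -0.61, Ppargc1b at -0.47, Ebf2 at -0.45, Ppargc1a at -0.25 and Tfam at -0.21. Prdm16 at 1 day and Esrrg at 3 days, called here, are not listed in these tables. For the members listed, the counts in these tables equal those in the full count table.

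Across the 10 libraries the members fell into different patterns, given here as a description because the libraries share groups. Pearson's r of log2 CPM was 0.90 between Ppargc1b and Prdm16, 0.89 between Prdm16 and Ebf2, 0.88 between Esrra and Tfam and 0.48 between Ppargc1a and Ppargc1b. Zic1 ran opposite to Ppargc1a, with r of -0.84. Among 9896 other genes with a mean of at least 5 CPM, the pattern of Esrra was most like those of Dhcr7 (0.99), Id2 and Id1, that of Prdm16 most like Kank1 (0.99), Lpgat1 and Cdo1, that of Tfam most like Fbxo9 (0.99), Mettl18 and Psmd6, and that of Ppargc1a most like Lrif1 (0.98), Ercc4 and Zfp62. For Ebf2 they were Arrb1 (0.98), Ercc6l2 and Kat2b, and for Ppara the likeness was lower, led by Glmn (0.94).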

How the data were processed

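The deposited table holds raw read counts per gene for 10 libraries, and the authors' comparison tables hold log2 fold changes and p-values with adjusted p-values. TopHat2 2.1.1, DESeq2, bcl2fastq 2.17.1.14 and bedtools are named, per the submitters' processing notes, as are the builds mm9 and mm10. The annotation, counting rule, strandedness and build roles were not given in the sources used here. In the table are 26 rows whose symbols were turned into dates, with 0.242% to 0.264% of counts, and they were kept.

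Counts were scaled by TMM and tested in R 4.3.3 with edgeR 4.0.16 (quasi-likelihood, 5 groups in 1 model, at least 10 counts and a total of 15 by filterByExpr, prior count 2), with Benjamini-Hochberg adjustment over 15212 genes and a threshold of 0.05. The fit was tested on simulated data. DESeq2 1.42.0 served as an alternative, beside other scalings, filters, a replicate block, fewer groups and leaving out each library. The common dispersion of edgeR, which leaves out counting noise, corresponded to a coefficient of variation of 3.39% between libraries of a group. CPM was divided by GENCODE M21 exon length (GRCm38) where genes were compared. Members and lists were chosen with earlier results of these data known. All members are named, with up to 4 genes of smallest p per list and comparison, Ucp1, and 3 genes of most similar pattern.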

Additional observations from a re-analysis of the deposited data

Results flagged for a closer look

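For 3 of the 10 regulators the effect of BML-260 differed between 1 and 3 days by the test of that difference in edgeR, each with a lower effect at 3 days. Ppara had an interaction of -0.45 on the log2 scale (edgeR adjusted p = 0.000184), from a rise of 0.35 at 1 day to a difference of -0.10 at 3 days. Tfam had -0.35 (edgeR adjusted p = 0.00374), from 0.11 to -0.23. Ppargc1a had -0.29 (edgeR adjusted p = 0.0347), from 0.01 to -0.28. Over the 17 alternatives the adjusted p of the interaction ran from 6.47e-06 to 0.00677 for Ppara, from 0.00129 to 0.0349 for Tfam and from 0.0236 to 0.181 for Ppargc1a.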

How the results depend on the processing

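Of the members' log2 fold changes recomputed under 17 alternatives, 1286 values kept direction and side of the threshold, 46 lost and 11 gained a call, and 17 changed sign, none of them called in either fit. The sign changes were in Ppargc1b over time in DMSO (-0.0024 with DESeq2 size factors, -0.0192 with upper-quartile scaling, -9e-04 with a filter of 1 CPM, -0.0076 with only the groups compared, -7e-04 with DESeq2, and -0.0656 and -0.0606 without replicate 1 of either DMSO group, in a range of -0.0656 to 0.0775 over left-out libraries), Ppargc1a at 1 day of BML-260 (-0.0014 with upper-quartile scaling, and -0.0046 and -0.0058 without replicate 1 of DMSO or of BML-260, in a range of -0.0058 to 0.0354), Nrf1 in ISO against DMSO at 1 day (-0.0021) and in BML-260 against ISO (0.019), both with upper-quartile scaling, and, each without 1 library, Nrf1 in BML-260 against ISO (-0.0393 to 0.0018), in ISO against DMSO at 3 days (-0.0596 to 0.0023) and in the interaction (-0.0136 to 0.0857), Esrra in the interaction (-0.0103 to 0.0943) and Esrrg over time in DMSO (-0.2705 to 0.0033). With DESeq2, the genes called were 1746 for BML-260 at 1 day, 721 for the interaction and 1864 for ISO against DMSO at 3 days, and the cause was not tested. Leaving out each library in turn, where a lone library is assumed to vary like the other groups, gave 1235 to 2843 genes for BML-260 at 1 day, 659 to 1371 for the interaction and 1469 to 3073 for ISO against DMSO at 3 days, and 4 to 7 members in BML-260 against ISO, 3 to 6 in ISO against DMSO at 3 days and 2 to 4 over time in DMSO. The low counts came without DMSO at 1 day replicate 2 for the first 2 of these gene counts and without ISO replicate 2 for the third.

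Replicate numbers did not pair the libraries: correlations of same-numbered libraries' deviations between groups ran from -0.0344 to 0.0577 over 10 pairs of groups. With the replicate number as a block, the members called were 4 for BML-260 at 1 day, 6 at 3 days and 4 for the interaction, where Ebf2 was gained (-0.25, edgeR adjusted p = 0.0275), and the other counts of members were as in the fit without the block. Ebf2 was also gained there with upper-quartile scaling, with no filter on low counts, with only the groups compared, and without ISO replicate 1, ISO replicate 2 or BML-260 at 3 days replicate 1. Counts of 47 to 92 limit what can be said of Esrrg.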

Other observations

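The 10 regulators together took 0.0688% and 0.0695% of all counts in DMSO at 1 day, 0.0667% and 0.0662% in BML-260 at 1 day, 0.0643% and 0.0645% in DMSO at 3 days, 0.0539% and 0.052% in BML-260 at 3 days, and 0.0537% and 0.0519% in ISO. Smooth muscle and pericyte markers, summed, measured 390.3 and 394.8 CPM in DMSO and 283.2 and 302.4 CPM in BML-260 at 1 day. At 3 days they measured 426.3 and 438.5 CPM in DMSO and 254.7 and 278 CPM in BML-260. Of 8 tested genes, 6 were lower in BML-260 at each time, where 8.62% and 18.3% of all genes were. Brown adipocyte markers, summed, were highest in BML-260 at 1 day, at 13620 and 14140 CPM, beside 10160 and 10310 CPM in DMSO. Most of that sum was Fabp4, which averaged 10440 CPM beside 6393 CPM, while Adipoq averaged 1089 CPM beside 1390 CPM. Of the 10 markers, 4 rose and 2 fell, with a median log2 fold change of -0.01, where 9.32% of all genes rose and 8.62% fell.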
